A study of Danio rerio with 12 samples.

Results

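Reactive oxygen species are removed in layers, and this report follows the transcripts of the enzymes that do so, together with msrb1a, a methionine sulfoxide reductase listed in the study under its older name sepx1a. The members were every probe set whose array annotation gives the symbol msrb1a, msrb1b, sod1, sod2, cat, prdx1, prdx2, gpx1a, gpx4a or txn. No probe set carries txn, so 9 of the 10 genes remained, out of 8793 genes with a single symbol on the array, and they were read by 13 of the 15502 probe sets tested. msrb1a was chosen because its probe sets had moved in opposite directions in the comparison reported here. Its changes are therefore given as a description, without a test.

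The samples were 6 pools of zebrafish embryos of the wild-type AB strain kept in 10 nM morphine in their medium from 5 hours post-fertilization (hpf) onward and 6 pools of control embryos of the same strain without treatment. RNA was taken at 24 hpf from about 100 whole embryos a pool, and each pool went on 1 Affymetrix Zebrafish Genome Array. The comparison asks which transcripts differ after the drug has been present from the end of blastula. In whole embryos, fewer cells of a type and less RNA per cell cannot be told apart. Signals are log2 values on the scale of RMA, the method by which the authors turned probe intensities into 1 signal per probe set and array, and a log2 fold change is the morphine mean minus the control mean.

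Superoxide dismutases turn superoxide into oxygen and hydrogen peroxide. Catalase, peroxiredoxins and glutathione peroxidases then remove peroxides, with reducing power supplied through thioredoxin and glutathione. Methionine sulfoxide reductases act one step later, on protein methionines that have already been oxidized, and the B class to which msrb1a and msrb1b belong reduces the R form of methionine sulfoxide. Several of these enzymes, among them the mammalian MsrB1 and the glutathione peroxidases GPX1 and GPX4, are selenoproteins, which carry selenocysteine at the active site.

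Array medians lay between 5.81 and 5.86, and any pair of arrays correlated at 0.990 to 0.999 over the probe sets. Morphine replicate 1 and control replicates 1 and 2 stood apart from the other 9 arrays, with first principal component scores of -12.9 in morphine replicate 1 and of -11.2 and -22.4 in the control replicates, against 0.259 to 13.1 elsewhere. The same 3 arrays had the smallest difference between the 3′ and 5′ actin control probe sets, a measure related to RNA integrity and labelling, at 3.51 in morphine replicate 1 and at 3.58 and 3.62 in control replicates 1 and 2. The other arrays spanned 4.12 to 5.32 with morphine and 4.58 to 4.93 in controls. Across all 15502 probe sets, 1062 passed the limma threshold of adjusted p under 0.10, which is 6.85%, with 485 higher (3.13%) and 577 lower (3.72%) with morphine.

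The labels name whole embryos, and marker lists of several tissues were measured at once. Genes with a mean signal of at least 5 made up 9 of 10 red blood cell markers, all 11 of the yolk syncytial layer and liver, all 8 of muscle, all 8 of the nervous system, all 5 of notochord and floor plate, all 6 of epidermis and 5 of 6 of macrophages and neutrophils. With the brightest probe set standing for each gene, 4 genes of the liver and yolk list were lower with morphine (fga, fgb, fgg and tfa) and apoea was higher. Of the muscle list, 3 of 8 were lower, with mylpfa among them. By that rule no gene of the other 5 lists passed, and among all 8793 genes with a single symbol 3.41% were higher and 4.4% lower. A dimmer probe set of stmn1b, of the nervous system list, was lower at -0.37 (limma adjusted p = 0.0498), and the brightest one of that gene was at -0.16 (limma adjusted p = 0.242).

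Probe set Dr.147.1.A1_at of msrb1a was higher with morphine. Its log2 signal was 6.03, 5.95, 6.09, 6.02, 6.33 and 6.09 in morphine replicates 1 to 6, and 5.39, 5.56, 5.54, 5.56, 5.73 and 5.64 in control replicates 1 to 6. The lowest morphine array stood above the highest control array. The means were 6.09 ± 0.13 with morphine and 5.57 ± 0.11 in controls (SD, n = 6 each), a log2 fold change of 0.52 (standard error, SE, 0.07) or 1.43-fold.

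Probe set Dr.16417.1.A1_at went the other way. Log2 signals were 4.22, 3.86, 4.24, 4.03, 4.15 and 4.28 in morphine replicates 1 to 6, and 4.67, 4.47, 4.69, 4.92, 4.65 and 4.68 in control replicates 1 to 6. Every morphine array was below every control array. The means were 4.13 ± 0.16 with morphine and 4.68 ± 0.15 in controls (SD, n = 6 each), a log2 fold change of -0.55 (SE 0.08). It is a dim probe set, with all 12 arrays under a log2 signal of 5, a range in which differences of log2 signal are compressed by background. Its mean over the 12 arrays was 4.41, near the 25th percentile of all probe sets at 4.28. Whether its signal stands above background was not tested.

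Probe set Dr.24956.1.S1_at was lower on average, but its groups overlapped. The log2 signals were 6.12, 5.63, 5.56, 5.48, 5.62 and 5.37 in morphine replicates 1 to 6, and 6.38, 6.12, 5.85, 5.97, 5.79 and 5.75 in control replicates 1 to 6. Morphine replicate 1 lay among the controls, and the other 5 morphine arrays lay below all 6 of them. The means were 5.63 ± 0.26 with morphine and 5.98 ± 0.24 in controls (SD, n = 6 each), a log2 fold change of -0.35 (SE 0.12). Without morphine replicate 1 it was -0.44, and without the 3 arrays that stood apart it was -0.31 (SE 0.07).

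**Figure D1:**
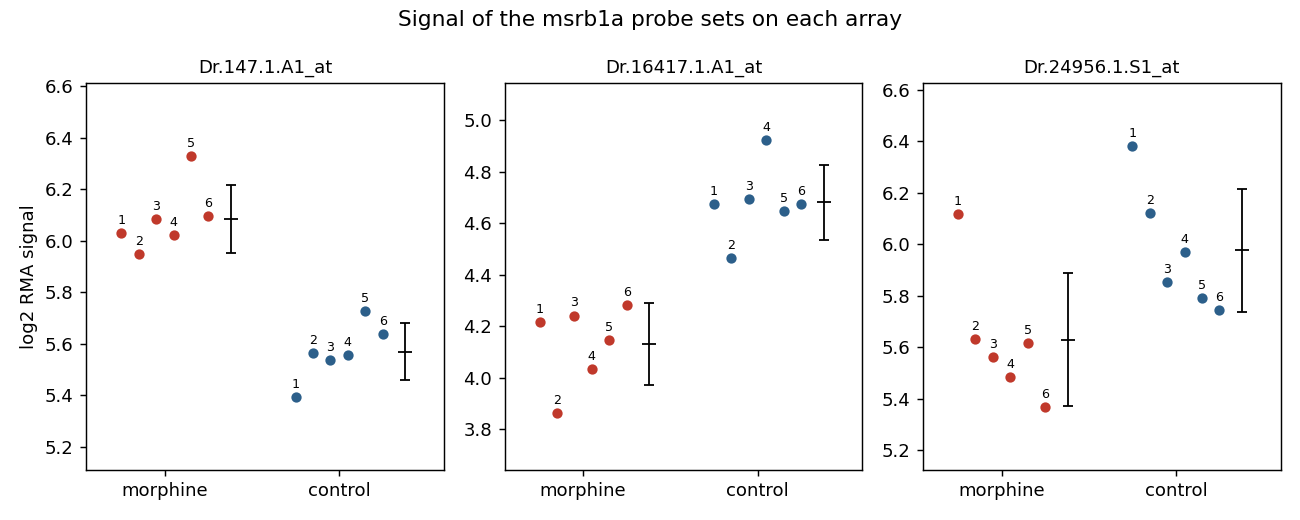
Log2 RMA signal (y axis, the same length of scale in each panel) of the 3 msrb1a probe sets on the 6 morphine and 6 control arrays (x axis). Points are arrays, numbered by replicate, and bars are the mean ± SD. The morphine arrays lie above all controls for Dr.147.1.A1_at (5.95 to 6.33), below all controls for Dr.16417.1.A1_at (3.86 to 4.28), and overlap them for Dr.24956.1.S1_at through replicate 1 at 6.12.

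By their names, the 3 probe sets come from 3 sequence clusters (147, 16417 and 24956). They differ in whether their accession was matched to a RefSeq transcript. The design sequence of Dr.24956.1.S1_at is the RefSeq transcript of msrb1a, as matched by accession in the reference table. For Dr.147.1.A1_at and Dr.16417.1.A1_at the accession is not among the RefSeq transcripts of that table, and the assignment to msrb1a rests on the array annotation alone. None of the probe sets of the other members was matched in this way either. For msrb1b, sod1, cat, and Dr.10624.2.S1_a_at and Dr.10624.2.S1_at of prdx1, the accession was also not among those transcripts. For sod2, prdx2, gpx1a, gpx4a and Dr.10624.1.S1_at of prdx1 there was no accession to look up. Since msrb1b, sod1 and cat also had an accession without a match, its lack does not set Dr.147.1.A1_at and Dr.16417.1.A1_at apart. The probe sequences were not used here, so which part of the transcript each probe set reads is not known from these data.

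Morphine and control arrays of the same replicate number deviated together over all probe sets. Taken by pair, the morphine array was higher in 6 of 6 pairs for Dr.147.1.A1_at, by 0.39 to 0.64 on the log2 scale. For Dr.16417.1.A1_at it was lower in 6 of 6 pairs, with differences of -0.89 to -0.39. The groups of these probe sets did not overlap, so any pairing of the arrays would have given 6 of 6. These counts therefore add nothing to the group difference for which msrb1a was chosen. For Dr.24956.1.S1_at, whose groups overlapped, the morphine array was also lower in 6 of 6 pairs, with differences of -0.49 to -0.17. This included replicate 1, where the pair read 6.12 with morphine and 6.38 in the control. The other morphine arrays lay below all controls, so in any pairing only the pair of replicate 1 could have gone otherwise. This count therefore adds little to the group difference for which msrb1a was chosen.

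How the msrb1a probe sets varied among arrays of the same group is a measure that did not enter their choice. Of 12 relations computed, 6 set the probe sets against each other and 6 against the actin 3′ minus 5′ difference, each over the 6 arrays of a group with exact permutation tests, two-sided. Between probe sets, the strongest relation was that of Dr.147.1.A1_at with Dr.24956.1.S1_at in controls, with Pearson's r = -0.848 (exact permutation p = 0.0347, adjusted p = 0.183) and Spearman's rho = -0.714 (exact permutation p = 0.136, adjusted p = 0.525). In the morphine group the same pair had Pearson's r = -0.139 (exact permutation p = 0.717, adjusted p = 0.989) and Spearman's rho = -0.314 (exact permutation p = 0.564, adjusted p = 0.677). Without the 2 arrays farthest from the median of Dr.147.1.A1_at, r was -0.518 with morphine and -0.544 in controls. No pair of msrb1a probe sets passed after adjustment.

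Within the morphine group, Dr.24956.1.S1_at followed the actin 3′ minus 5′ difference. In the morphine group it was higher where that difference was smaller, with Pearson's r = -0.912 (exact permutation p = 0.00139, adjusted p = 0.0167) and Spearman's rho = -1.0 (exact permutation p = 0.00278, adjusted p = 0.0333), and r was -0.98 without the 2 arrays farthest from the median. In controls Pearson's r was -0.84 (exact permutation p = 0.0458, adjusted p = 0.183) and Spearman's rho was -0.543 (exact permutation p = 0.297, adjusted p = 0.677). That relation rested on control replicates 1 and 2, since r was 0.468 without the 2 arrays farthest from the median. With the actin difference as a covariate, the log2 fold change of this probe set was -0.29 (SE 0.07), that of Dr.147.1.A1_at was 0.51 (SE 0.07) and that of Dr.16417.1.A1_at was -0.57 (SE 0.08). Dr.147.1.A1_at and Dr.16417.1.A1_at had no relation to the actin difference that passed, with adjusted p of Pearson's r from 0.746 to 0.989 (exact permutation tests). The relation was not computed for probe sets of other genes, so it is not known to be particular to Dr.24956.1.S1_at.

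**Figure D2:**
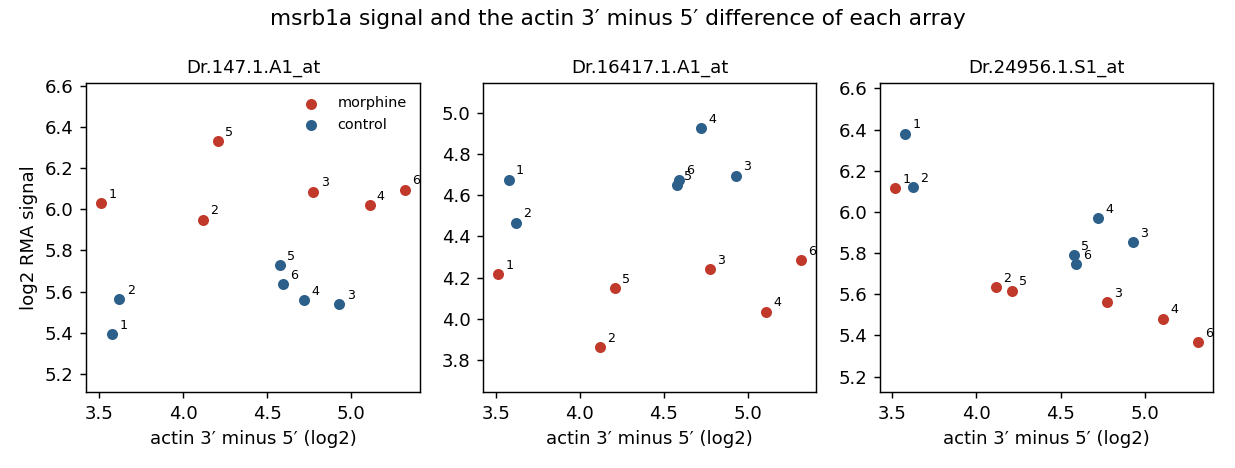
Log2 RMA signal of each msrb1a probe set (y axis) against the actin 3′ minus 5′ difference of the same array (x axis, log2), for 6 morphine and 6 control arrays numbered by replicate. For Dr.24956.1.S1_at the signal is higher where the actin difference is smaller in the morphine group (r = -0.912), while in controls r = -0.84 did not pass after adjustment and was 0.468 without replicates 1 and 2, which lie at the left.

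The genes with the most similar pattern were found by the root mean square difference over the 12 arrays, after the mean of each probe set was removed. For Dr.147.1.A1_at they were sgsm3 at 0.09, galk2 at 0.10 and tmem41aa at 0.10, against a root mean square deviation of 0.28 for the probe set itself. For Dr.16417.1.A1_at they were cst14b.1 at 0.11, fbxo25 at 0.12 and c4b at 0.12, against its own 0.31. For Dr.24956.1.S1_at they were astn1 at 0.10, tex261 at 0.10 and papola at 0.12, against its own 0.29. The lists share no gene, and since each pattern includes the difference between the groups, the genes near the first probe set were higher with morphine (log2 fold changes of 0.41 to 0.45) and those near the other 2 were lower (-0.61 to -0.20).

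The paralogue msrb1b has 1 probe set. Its log2 signal was 7.72, 7.29, 7.64, 7.60, 7.72 and 7.40 in morphine replicates 1 to 6, and 7.78, 7.68, 7.66, 7.75, 7.66 and 7.76 in control replicates 1 to 6. Morphine replicates 2, 4 and 6 were the lowest of the 12 arrays and the other 3 lay at or near the level of the controls, so the groups overlapped. The means were 7.56 ± 0.18 with morphine and 7.71 ± 0.05 in controls (SD, n = 6 each), a log2 fold change of -0.16 (SE 0.07), which did not pass (limma adjusted p = 0.297).

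Of the 10 probe sets of the 8 other genes, 1 passed the threshold, a lower one of prdx1, where 6.85% of all probe sets passed in either direction and 3.72% as lower. A single call in 10 is close to that share. Their median log2 fold change was -0.12, with 9 of 10 below 0, and the median of all probe sets was 0.01. Of the 10, 3 read prdx1, and the share of all probe sets below 0 was not counted. A shift of this size was not particular to these genes. By brightest probe set, medians were -0.12 for the nervous system and muscle lists and -0.10 for yolk and liver. They were -0.06 for red blood cells, 0.002 for notochord and floor plate, 0.01 for macrophages and neutrophils and 0.03 for epidermis. In none of the 10 did the groups stand without overlap, as they did in 3.61% of all probe sets and in 2 of the 3 of msrb1a, where the choice of the gene had used this comparison.

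**Figure D3:**
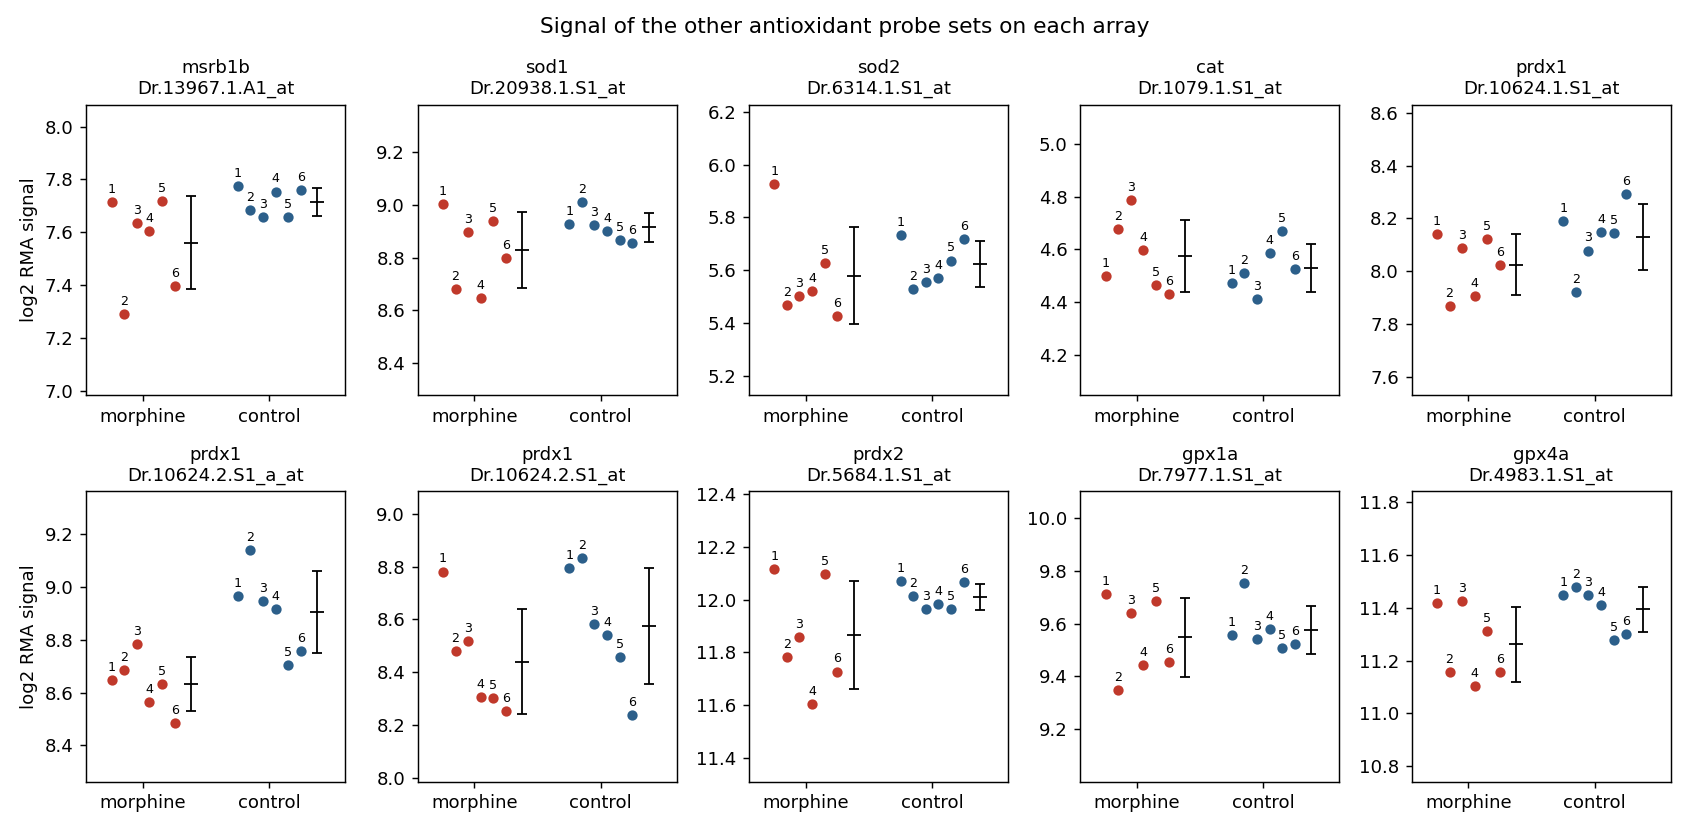
Log2 RMA signal (y axis, the same length of scale in each panel) of the 10 probe sets of msrb1b, sod1, sod2, cat, prdx1, prdx2, gpx1a and gpx4a on the 6 morphine and 6 control arrays (x axis). Points are arrays, numbered by replicate, and bars are the mean ± SD. The groups overlap in every panel and the prdx1 probe set Dr.10624.2.S1_a_at shows the widest gap between the means.

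For sod1, the cytosolic copper and zinc dismutase, the log2 signal was 9.00, 8.68, 8.90, 8.65, 8.94 and 8.80 in morphine replicates 1 to 6, and 8.93, 9.01, 8.93, 8.90, 8.87 and 8.86 in control replicates 1 to 6. Morphine replicates 2, 4 and 6 were below all controls. The means were 8.83 ± 0.14 with morphine and 8.91 ± 0.06 in controls (SD, n = 6 each), and the log2 fold change of -0.09 (SE 0.06) did not pass (limma adjusted p = 0.56). For sod2, the mitochondrial manganese dismutase, the log2 signal was 5.93, 5.47, 5.50, 5.52, 5.63 and 5.43 in morphine replicates 1 to 6, and 5.73, 5.53, 5.55, 5.57, 5.64 and 5.72 in control replicates 1 to 6. Morphine replicate 1 was the highest of the 12 arrays, replicate 5 lay within the controls, and the other 4 were below all of them. The log2 fold change was -0.04 (SE 0.08, limma adjusted p = 0.843), and it was -0.11 without morphine replicate 1 (limma adjusted p = 0.328).

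For cat, which encodes the peroxisomal enzyme catalase, the log2 signal was 4.50, 4.68, 4.79, 4.60, 4.47 and 4.43 in morphine replicates 1 to 6, and 4.47, 4.51, 4.41, 4.59, 4.67 and 4.53 in control replicates 1 to 6. The groups overlapped over most of their range. The means were 4.58 ± 0.14 with morphine and 4.53 ± 0.09 in controls (SD, n = 6 each), a log2 fold change of 0.05 (SE 0.07, limma adjusted p = 0.797). This was the only probe set of the 10 with a value above 0, and it was dim, with all 12 arrays under a log2 signal of 5.

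Of the 3 probe sets of prdx1, a cytosolic peroxiredoxin, Dr.10624.2.S1_a_at was lower with morphine. The arrays gave log2 signals of 8.65, 8.69, 8.78, 8.56, 8.63 and 8.49 in morphine replicates 1 to 6, and 8.97, 9.14, 8.95, 8.92, 8.70 and 8.76 in control replicates 1 to 6. Only morphine replicate 3 reached into the range of the controls, above control replicates 5 and 6. The means were 8.63 ± 0.10 with morphine and 8.91 ± 0.16 in controls (SD, n = 6 each), a log2 fold change of -0.27 (SE 0.07, limma adjusted p = 0.0439). An exact permutation test of the group difference over the 12 arrays, unpaired and two-sided, gave p = 0.00866. It used the same values as the limma fit, so it is not separate support. The test was run on each of the 10 probe sets without adjustment. The next smallest exact permutation p was 0.0519, for msrb1b, and the largest was 0.686, for gpx1a. By replicate number, the morphine array was lower in 6 of 6 pairs. Since all morphine arrays but replicate 3 lay below all controls, only that pair could have gone otherwise, and the count adds little. Without the 3 arrays that stood apart the log2 fold change was -0.20 and did not pass (limma adjusted p = 0.187). The suffix of its name marks probes shared by several transcripts of a gene. In the liver and yolk list, 4 of 11 genes were lower as well, 1 was higher and 6 did not pass. In the muscle list, 3 of 8 were lower and 5 did not pass. Among all 8793 genes with a single symbol, 4.4% were lower. The part of these tissues in the prdx1 result was not tested.

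The other prdx1 probe sets were lower on average and did not pass. For Dr.10624.1.S1_at the log2 signal was 8.14, 7.87, 8.09, 7.91, 8.12 and 8.02 in morphine replicates 1 to 6, and 8.19, 7.92, 8.08, 8.15, 8.15 and 8.29 in control replicates 1 to 6, with a log2 fold change of -0.10 (SE 0.07, limma adjusted p = 0.496). For Dr.10624.2.S1_at it was 8.78, 8.48, 8.52, 8.30, 8.30 and 8.25 in morphine replicates 1 to 6, and 8.79, 8.83, 8.58, 8.54, 8.46 and 8.24 in control replicates 1 to 6, with a log2 fold change of -0.13 (SE 0.10, limma adjusted p = 0.582). In 5 of 6 pairs of both probe sets the morphine array was the lower. The spread of Dr.10624.2.S1_at was wide in both groups, at an SD of 0.20 with morphine and 0.22 in controls. The 3 prdx1 probe sets come from 1 sequence cluster by their names (10624), and all 3 values were below 0.

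prdx2 encodes a peroxiredoxin that is abundant in red blood cells in mammals. Its arrays had log2 signals of 12.11, 11.78, 11.86, 11.61, 12.10 and 11.73 in morphine replicates 1 to 6, and 12.07, 12.01, 11.96, 11.98, 11.97 and 12.07 in control replicates 1 to 6. Morphine replicates 1 and 5 were above all controls and the other 4 were below all of them. The means were 11.86 ± 0.20 with morphine and 12.01 ± 0.05 in controls (SD, n = 6 each), a log2 fold change of -0.15 (SE 0.08, limma adjusted p = 0.389). Among the 10 red blood cell markers on the array none passed, with a median log2 fold change of -0.06 and a mean signal of the list of 7.71 to 7.98 on the morphine arrays and 7.81 to 8.03 on the control arrays.

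The glutathione peroxidases were the remaining members. gpx1a, which reduces hydrogen peroxide, had a log2 signal of 9.71, 9.35, 9.64, 9.44, 9.69 and 9.45 in morphine replicates 1 to 6, and of 9.56, 9.75, 9.54, 9.58, 9.51 and 9.52 in control replicates 1 to 6. Its morphine arrays fell on either side of most controls, and its log2 fold change was -0.03 (SE 0.07, limma adjusted p = 0.893). gpx4a, whose mammalian counterpart reduces lipid hydroperoxides in membranes, had a log2 signal of 11.42, 11.16, 11.43, 11.10, 11.31 and 11.15 in morphine replicates 1 to 6, and of 11.45, 11.48, 11.45, 11.41, 11.28 and 11.30 in control replicates 1 to 6. Here morphine replicates 2, 4 and 6 were below all controls and the other 3 were within their range. The means were 11.26 ± 0.14 with morphine and 11.39 ± 0.08 in controls (SD, n = 6 each), a log2 fold change of -0.13 (SE 0.07, limma adjusted p = 0.344).

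Thioredoxin is carried by the array under txna and txnb, and the reference table gives TXN as a synonym of txna. txna was at 13.03 ± 0.04 with morphine and 13.03 ± 0.04 in controls (SD, n = 6 each), a log2 fold change of -0.0024 (SE 0.044, limma adjusted p = 0.988). txnb was at 10.65 ± 0.07 with morphine and 10.71 ± 0.12 in controls (SD, n = 6 each), a log2 fold change of -0.06 (SE 0.06, limma adjusted p = 0.68). Neither was counted as a member.

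Of a wider list of 94 genes of redox defence and selenoprotein synthesis, 45 were on the array beside the members. With the brightest probe set standing for each gene, 2 were higher and 4 were lower with morphine, and 39 did not pass. Among all 8793 genes with a single symbol, 3.41% were higher and 4.4% lower by the same rule. The list was written with earlier results of these data known, so its counts cannot be tested against these shares. The median log2 fold change of the 45 was -0.02, with 26 below 0.

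The largest fall among them was that of txndc9, a thioredoxin-domain protein. Its log2 signal was 8.71 at the lowest, 9.07 at the median and 9.30 at the highest on the morphine arrays, and 9.56, 9.81 and 9.96 on the control arrays. The groups did not overlap, and the log2 fold change was -0.75 (SE 0.09, limma adjusted p = 6.3e-05). sesn3, a sestrin, a family of stress-inducible proteins, changed by the same size in the other direction. In log2 signal it was 10.52 at the lowest, 10.67 at the median and 10.79 at the highest on the morphine arrays, and 9.80, 9.91 and 10.01 on the control arrays. This was a log2 fold change of 0.75 (SE 0.06, limma adjusted p = 8.17e-07), again with no overlap. The study had already listed txndc9 as lower and sesn3 as higher with morphine, from the same arrays. The wider list was written with earlier results known, so neither is a new finding here.

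The other sulfoxide reductase measured, msrb3, was lower with morphine, as 1 of 1 gene of its list. In log2 signal it was 6.64 at the lowest, 6.75 at the median and 6.89 at the highest on the morphine arrays, and 6.88, 7.01 and 7.08 on the control arrays. Only the highest morphine array reached the lowest control array, and the log2 fold change was -0.24 (SE 0.06, limma adjusted p = 0.0196). It did not pass without the 3 arrays that stood apart (limma adjusted p = 0.11, log2 fold change -0.20). Among the further peroxiredoxins, prdx5, which is found in mitochondria and peroxisomes, was lower at -0.36 (SE 0.08, limma adjusted p = 0.0135), and its arrays separated by group, at 10.75 to 11.12 with morphine and 11.14 to 11.51 in controls. prdx3 at -0.12 and prdx4 at 0.14 did not pass (limma adjusted p = 0.24 and 0.443).

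Among the genes of thioredoxin and glutaredoxin, 1 of 9 was higher and 1 lower. The higher one was tmx1, a thioredoxin-related protein of the endoplasmic reticulum membrane, at 0.36 (SE 0.07, limma adjusted p = 0.00678), with a log2 signal of 5.94 to 6.22 on the morphine arrays and 5.46 to 5.88 on the control arrays. The 3 glutathione peroxidases gpx1b, gpx4b and gpx8 did not pass, nor did the 3 genes of glutathione synthesis and reduction, gclc and gclm at -0.04 and -0.11 and the glutathione reductase gsr at 0.13 (limma adjusted p = 0.781, 0.467 and 0.307).

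Nrf2 is the transcription factor that switches on many antioxidant genes under oxidative or electrophilic stress, and Keap1 holds it in check. nfe2l2a, which encodes Nrf2, was at 0.23 and did not pass (limma adjusted p = 0.175), and keap1a was at -0.02 (limma adjusted p = 0.925). Of the target genes on the array, nqo1 at -0.09, gstp1.2 at 0.06 and fth1a at -0.04 did not pass (limma adjusted p = 0.629, 0.703 and 0.757). sesn3, placed in this list as a sestrin, was the 1 gene of 6 that passed. Whether Nrf2 acts on sesn3 was not tested, so its rise is not read as an Nrf2 response.

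Of 20 other selenoproteins and genes of selenocysteine synthesis, 1 was lower, 0 were higher and 19 did not pass, and the median log2 fold change was -0.01. The lower one was selenoo1, whose counterpart in other species is a mitochondrial selenoprotein. Its log2 signal was 4.65 to 4.85 on the morphine arrays, all under 5, where background compresses differences, and 5.02 to 5.33 on the control arrays. The log2 fold change of selenoo1 was -0.38 (SE 0.06, limma adjusted p = 0.00131). Its other probe set, at a mean of 3.39 with morphine and 3.30 in controls, was at 0.09 and did not pass (limma adjusted p = 0.412). For selenow2b, 1 probe set was lower at -0.32 (SE 0.09, limma adjusted p = 0.0564), and the brighter one, which stands for the gene, did not pass at -0.12 (limma adjusted p = 0.524). The first of these calls was lost without any 1 of 5 arrays (control replicates 4, 5 and 6 and morphine replicates 2 and 4), with limma adjusted p of 0.101 to 0.13.

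**Figure D4:**
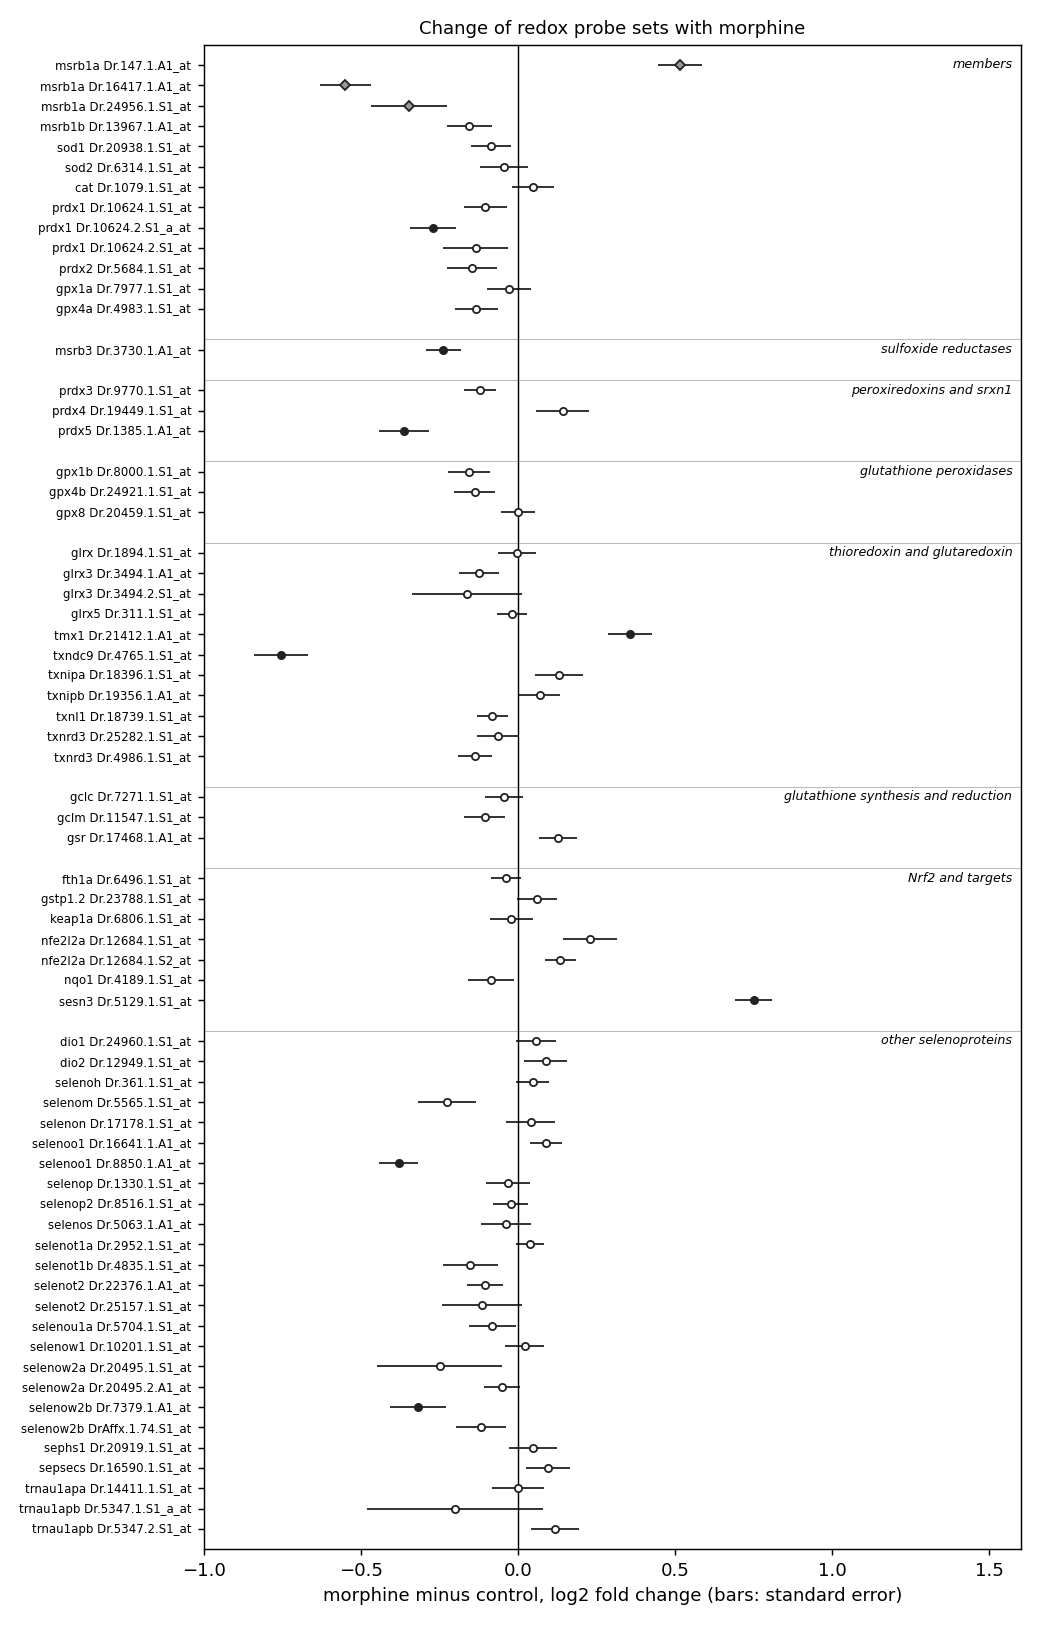
Log2 fold change, morphine minus control (x axis), of the 13 member probe sets and of the probe sets of the wider redox lists (y axis, grouped by list). Points are limma estimates over 6 morphine and 6 control arrays, bars are the SE, black points have an adjusted p under 0.10, open points do not, and msrb1a is drawn in grey with no test. Among the tested probe sets, txndc9 at -0.75 and sesn3 at 0.75 lie farthest out.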

How the data were processed

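Total RNA of 12 pools of whole embryos (6 morphine, 6 control) was hybridized to 1 array each. The deposited values are log2 signals that the authors computed from the arrays by RMA, which corrects background, normalizes by quantiles and summarizes probes (version not given in the sources used here). Of 15617 probe sets, 115 Affymetrix controls were left out. Genes were named from GEO's platform annotation, where 10795 probe sets had 1 symbol, 135 several and 4572 none. All 15502 were fitted with limma 3.58.1 in R 4.3.3 (lmFit, eBayes, no covariate), with two-sided p-values adjusted by Benjamini-Hochberg over the whole table and a threshold of 0.10, the false discovery rate of the study's methods. The SAM test of those methods was not run. The fit was tested on simulated data. Exact permutation tests were enumerated in Python 3.11.15, with ranks and Spearman's rho from SciPy 1.17.1.

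The members and the lists were chosen with earlier results of these data known. Genes named are the members, each wider-list gene with a probe set past the threshold, the 3 nearest patterns of each msrb1a probe set, and, chosen after their values were seen, further genes of the short and marker lists. A list gene is represented by its brightest probe set. Same-numbered arrays correlated in their deviations from the group means at 0.225 to 0.471, each above 0.1. Arrays of different numbers were not compared in this way. The main fit and the exact permutation tests of group differences did not use pairs, and the replicate block did. For the pair counts and the block, the numbers were taken, as an assumption, to pair the samples. This comes from the data, since the sources do not say what a number stands for, nor whether pools came from separate clutches, so p-values measure the spread between these pools. The number of arrays limits the precision. Alternatives were the replicate block, the actin difference as a covariate, array weights, a variance trend, a second normalization, centring, filters, a threshold of 0.05 and leaving out arrays.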

Additional observations from a re-analysis of the deposited data

Results flagged for a closer look

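In 3 of 40 groups of 6 arrays checked, 1 array lay far from the other 5, where chance gives about 1 in 20. For msrb1a at Dr.24956.1.S1_at, morphine replicate 1 had a log2 signal of 6.12 and the other morphine arrays 5.37 to 5.63, and the gap was 0.646 of the whole range. For gpx1a, control replicate 2 had 9.75 and the other controls 9.51 to 9.58, a gap of 0.706 of the range. For selenoo1 at Dr.8850.1.A1_at, control replicate 2 had 5.33 and the other controls 5.02 to 5.11, a gap of 0.705 of the range. Morphine replicate 1 and control replicate 2 are among the arrays that stood apart over all probe sets.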

How the results depend on the processing

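The number of probe sets past the threshold was 720 at an adjusted p under 0.05 and 1547 with the replicate block, against 1062, and 779 to 1152 with 1 array left out. With the replicate block, 8 wider redox genes passed, against 6, and 1 member probe set other than those of msrb1a, as without it. The block ended no call among the members and the wider redox genes named, and the marker genes were not refitted for this. With 1 array left out, 1 such member probe set and 6 to 8 wider genes passed. The log2 fold changes of msrb1a then ran from 0.47 to 0.55 (Dr.147.1.A1_at), -0.59 to -0.50 (Dr.16417.1.A1_at) and -0.44 to -0.27 (Dr.24956.1.S1_at), and no alternative turned a sign. For Dr.147.1.A1_at and Dr.16417.1.A1_at the groups did not overlap, so leaving out arrays could not have turned it. For Dr.24956.1.S1_at all morphine arrays but replicate 1 lay below all controls. These signs therefore add little to the group difference for which msrb1a was chosen. For Dr.24956.1.S1_at the replicate block kept the log2 fold change of -0.35 and lowered its SE from 0.12 to 0.06. The single call among the other members, prdx1, was not there without the 3 arrays that stood apart, nor without shared-sequence probe sets, which leaves its probe set out. The first also ended the call of msrb3. gpx1a turned its sign without morphine replicate 2 (0.0107) and without control replicate 2 (0.0062), against -0.03 and a lowest of -0.0619 with 1 array left out. selenow2b at -0.32 did not pass at 0.05. Left-out arrays moved sod2 between -0.1135 (without morphine replicate 1) and -0.0134 (without morphine replicate 6). The cause of these changes was not tested. Dim probe sets, among them cat and Dr.16417.1.A1_at, were left out by the filter on a log2 signal of 5, and low signal compresses differences there.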
